A study of Homo sapiens with 24 samples.

Results

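The human peroxiredoxins and thioredoxins described here were PRDX1, PRDX2, PRDX3, PRDX4, PRDX5, PRDX6, TXN and TXN2. They were taken by gene symbol and are 8 of the 60308 genes in a table of counts over exons, with their rows in a second table of counts over introns of 37473 genes. All 8 had exon counts in each of 24 libraries and passed a filter of a mean of at least 1 CPM (counts scaled to a common library total), which left 17666 genes to test. Of the 8, 6 were tested in the intron table, because the rows of PRDX2 and PRDX6 held 0 counts in all libraries. All 2947 intron bases of PRDX2 also lay in introns of ENSG00000267062, which runs across the gene on the other strand, and all 8925 of PRDX6 in introns of PRDX6-AS1, and the counting was run without the option that assigns a fragment to several genes.

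The cells were U2OS, an established human osteosarcoma line, and every group shared its genotype. Ctrl cells received 0.12% DMSO for 2 h, NaAsO2 cells 500 µM sodium arsenite for 60 min, and RK-33 cells 6 µM of RK-33, an inhibitor of the RNA helicase DDX3. Combo cells received both. RK-33 was given as a pre-treatment of 1 h, in Combo cells before NaAsO2 was added. The study timed the 2 h of DMSO to match RK-33 in treated samples. Whether NaAsO2 cells received DMSO is not stated. Each cytoplasmic lysate was centrifuged, after nuclei were removed, into a soluble fraction and an insoluble pellet enriched for stress granules and P-bodies, and rRNA-depleted RNA was sequenced from 3 replicates of each of the 8 treatment and fraction groups. The insoluble fraction is defined by sedimentation from a detergent lysate and was not purified through a granule protein.

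Peroxiredoxins are abundant thiol enzymes that reduce hydrogen peroxide and organic peroxides with a reactive cysteine. In the typical members the oxidised cysteine is reduced again by a thioredoxin, whose own disulfide is restored by a thioredoxin reductase with NADPH, whereas PRDX6 relies on glutathione. Arsenite binds vicinal thiols and raises oxidants in the cell, and DDX3 is a DEAD-box helicase that takes part in translation and in stress granules.

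The members sit in different compartments, and the 5′ end of the coding region carries the mitochondrial or endoplasmic reticulum targeting signal where there is one. PRDX1, PRDX2, PRDX6 and TXN are mainly cytosolic, PRDX3 and TXN2 mitochondrial, PRDX5 is found in mitochondria, peroxisomes and cytosol, and PRDX4 enters the endoplasmic reticulum (ER). The first 30 coding bases of the canonical transcript (GENCODE release 44, GRCh38) of 7 members are shown because a mitochondrial or ER signal begins there. The start codon is in capitals.
PRDX2: ATGgcctccggtaacgcgcgcatcggaaag
PRDX6: ATGcccggaggtctgcttctcggggacgtg
TXN: ATGgtgaagcagatcgagagcaagactgct
PRDX3: ATGgcggctgctgtaggacggttgctccga
TXN2: ATGgctcagcgacttcttctgaggaggttc
PRDX5: ATGggactagctggcgtgtgcgccctgaga
PRDX4: ATGgaggcgctgccgctgctagccgcgaca

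These stretches lie in exons on GRCh38, at chr19:12801232-12801261 on the minus strand for PRDX2 and chr1:173477398-173477427 on the plus strand for PRDX6. For PRDX3 the stretch is chr10:119178761-119178790 on the minus strand, for TXN2 chr22:36480808-36480837 on the minus strand, for PRDX5 chr11:64318216-64318245 on the plus strand and for PRDX4 chrX:23667571-23667600 on the plus strand. That of TXN starts in one exon and ends in the next, between chr9:110251457 and chr9:110256435 on the minus strand. The canonical transcripts were short, from 737 bases in TXN to 1690 in PRDX6, with coding regions of 315 bases in TXN to 813 in PRDX4. GC content ran from 36.8% in TXN through 40.2% in PRDX3, 43.9% in PRDX6, 46.2% in PRDX1, 50.3% in PRDX4, 56.4% in TXN2 and 58.2% in PRDX2 to 60.6% in PRDX5.

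The libraries held 8627294 to 15376554 exon counts and 1621536 to 6092652 intron counts. In CPM of all exon counts, the bone-lineage gene RUNX2 was at 46.1 to 89.4 and COL1A1 at 779 to 6410 in all libraries, COL1A2 was at most 1.84, and the epithelial KRT19 and the leukocyte PTPRC were at most 0.969 and 2.09. The epithelial EPCAM and CDH1 were low but present, at 0.698 to 7.91 and 3.58 to 7.10 CPM. HMOX1, a heme-degrading enzyme that arsenite induces, was at 16.6 to 22.02 CPM in Ctrl soluble and 58.0 to 68.0 in NaAsO2 soluble libraries. It was at 22.3 to 25.3 in RK-33 soluble and 121 to 133 in Combo soluble libraries. The stress-response genes HSPA1B and DNAJB1 were at 74.4 to 85.2 and 213 to 223 CPM in NaAsO2 soluble libraries. In Combo soluble libraries they were at 1053 to 1328 and 881 to 1104 CPM. The study, with spike-in scaling and both fractions combined, reported both as lower in co-treated cells than with arsenite alone. What lies behind this difference was not tested. One library stood apart, NaAsO2 insoluble replicate 3. Its log2 CPM correlated with its 2 replicates at r = 0.920 and 0.930, against 0.975 to 0.991 for the other 22 replicate pairs, and RN7SL1, the RNA of the signal recognition particle, took 5.79% of its exon counts, against 0.426% to 1.23% in the other 11 insoluble and 7.51% to 15.5% in the 12 soluble libraries. Calls of members that changed without it are therefore given both ways, and since all libraries shared one estimate of the spread, leaving it out also changed tests that do not use its group.

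All 8 mRNAs had lower values in the insoluble than in the soluble fraction in Ctrl, NaAsO2, RK-33 and Combo cells, on average by between 1.25-fold for PRDX4 in NaAsO2 and 8.74-fold for TXN in NaAsO2. Within lysates, 94 of 96 ratios of insoluble to soluble CPM were below 1. The 2 exceptions were PRDX4 and PRDX5 in NaAsO2 lysate 3. In edgeR's quasi-likelihood test with Benjamini-Hochberg adjustment, 7 of 8 members passed an adjusted p of 0.05 as lower in Ctrl, 6 in NaAsO2, 8 in RK-33 and 8 in Combo, where 26.6%, 29.7%, 30.4% and 28% of the 17666 genes did. With the further limit of a 2-fold change, 4, 5, 7 and 5 members passed, against 10.7%, 16%, 15.2% and 13.1% of all genes. The median log2 fold change over the 8 was -1.001, -1.49, -1.54 and -1.11, and over all genes tested it was -0.03, 0.03, -0.01 and 0.00. These are shares of each library, so they give how an mRNA's part of a fraction differs and not how many molecules each fraction held. In bulk libraries, a change in some of the cells and in all of them cannot be told apart.

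**Figure D1:**
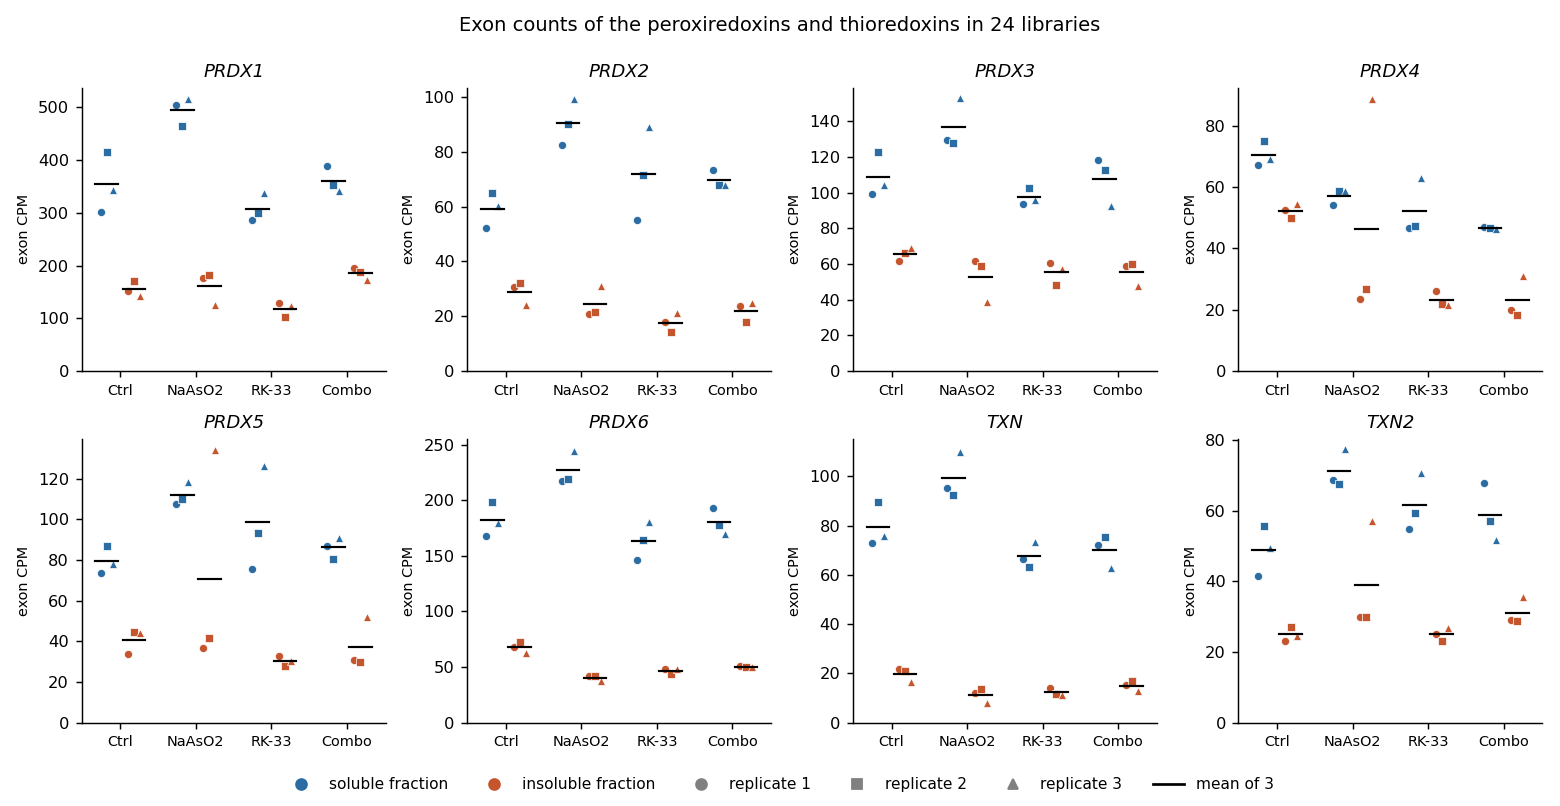
Exon CPM (scaled by TMM factors, linear axes from 0) of each member in the 24 libraries, by treatment, with soluble libraries in blue, insoluble libraries in orange, a symbol for each replicate number and a black bar at the mean of 3. Insoluble values lie below the soluble ones in every treatment except for PRDX4 and PRDX5, whose NaAsO2 insoluble replicate 3 reached 88.8 and 134 CPM.

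TXN, the cytosolic disulfide reductase that serves the peroxiredoxins and ribonucleotide reductase, had the lowest ratio of the 8 in every treatment. Ctrl soluble libraries held 72.8, 89.8 and 75.9 CPM of TXN, and Ctrl insoluble ones 21.9, 20.9 and 16.6 CPM. NaAsO2 soluble libraries held 95.4, 92.6 and 110 CPM, and NaAsO2 insoluble ones 12.02, 13.7 and 7.95 CPM. Under NaAsO2 the soluble libraries all lay above, and the insoluble libraries all below, those of Ctrl. Its log2 fold change between the fractions was -2.01 (SE 0.16) in Ctrl, -3.13 (SE 0.17) in NaAsO2, -2.45 (SE 0.17) in RK-33 and -2.23 (SE 0.16) in Combo, with edgeR adjusted p-values from 2.4e-09 in Ctrl to 1.7e-12 in NaAsO2. Only 0.555%, 0.125%, 0.419% and 0.628% of the tested genes had a lower log2 fold change in these treatments.

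PRDX6, which also has phospholipase activity, came second to TXN in Ctrl, NaAsO2 and Combo cells. Ctrl soluble libraries held 167.5, 199 and 179.5 CPM and Ctrl insoluble libraries 67.9, 72.8 and 62.4 CPM. NaAsO2 soluble libraries held 217, 219 and 244.5 CPM and NaAsO2 insoluble libraries 41.8, 41.4 and 37.1 CPM. In neither fraction did Ctrl and NaAsO2 overlap. The log2 fold changes between fractions were -1.43 (SE 0.11) in Ctrl, -2.50 (SE 0.11) in NaAsO2, -1.81 (SE 0.11) in RK-33 and -1.84 (SE 0.11) in Combo.

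PRDX2, a cytosolic member best known from red cells, changed its place in the order. Its Ctrl libraries held 52.2, 65.1 and 60.3 CPM in the soluble fraction and 30.6, 32.2 and 24.04 CPM in the insoluble fraction, with a log2 fold change of -1.03 (SE 0.18). Its RK-33 libraries held 55.0, 71.6 and 89.2 CPM in the soluble fraction and 17.8, 14.3 and 20.99 CPM in the insoluble fraction. The log2 fold change in RK-33 was -2.03 (SE 0.19), below that of PRDX6. The soluble RK-33 values were spread widely and overlapped with Ctrl, and the insoluble ones lay under all Ctrl values. In NaAsO2 and Combo its log2 fold changes were -1.90 (SE 0.19) and -1.66 (SE 0.18).

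PRDX1, the most abundant member, had log2 fold changes of -1.20 (SE 0.14) in Ctrl, -1.62 (SE 0.14) in NaAsO2, -1.38 (SE 0.14) in RK-33 and -0.96 (SE 0.14) in Combo. Its Combo soluble libraries held 389.5, 352 and 341 CPM and its Combo insoluble libraries 195, 188 and 173 CPM, which was its narrowest gap in the 4 treatments. Of its 1682 exon bases, 501 (29.8%) are also exons of MMACHC on the other strand, and 247 of the 2034 exon bases of PRDX2 (12.1%) are exons of ENSG00000267062. The counting did not use strand, so fragments from such stretches cannot be assigned to one of the pair.

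The 2 mitochondrial members had smaller fitted differences than the 4 cytosolic ones in each treatment, though PRDX3 and PRDX1 were equal at the printed precision in Combo, and the contrast between these compartments was not tested. With the trend over exon length removed in the fit, this order held in Ctrl, NaAsO2 and RK-33 but not in Combo. There PRDX3 was at -0.65 (SE 0.16) and PRDX1 at -0.50 (SE 0.16). PRDX3, the main peroxidase of the matrix, stood at 99.2, 123 and 104 CPM in Ctrl soluble libraries and at 61.4, 66.1 and 68.8 CPM in Ctrl insoluble ones. Its log2 fold change was -0.73 (SE 0.15) in Ctrl, -1.37 (SE 0.15) in NaAsO2, -0.82 (SE 0.15) in RK-33 and -0.96 (SE 0.15) in Combo. TXN2, the thioredoxin of mitochondria, stayed between -1.30 (SE 0.19) in RK-33 and -0.88 (SE 0.19) in NaAsO2. Without NaAsO2 insoluble replicate 3 the NaAsO2 values were -1.15 (SE 0.12) for PRDX3 and -1.22 (SE 0.14) for TXN2, and -1.43 (SE 0.13) for PRDX1. For both mitochondrial members, the insoluble value was the lower one in 12 of 12 lysates.

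PRDX5, the member with the widest distribution among compartments, stood at 73.5, 87.0 and 78.0 CPM in Ctrl soluble libraries and at 33.6, 44.4 and 44.03 CPM in Ctrl insoluble ones. The log2 fold change was -0.97 with an SE of 0.32 and an adjusted p of 0.016. It came to -1.70 (SE 0.33) in RK-33 and -1.20 (SE 0.32) in Combo. In NaAsO2 the soluble libraries held 108, 110 and 118 CPM and the insoluble ones 36.6, 41.6 and 134 CPM, and the log2 fold change of -0.68 (95% interval -1.33 to -0.02) had an adjusted p of 0.074. Without insoluble replicate 3 it was -1.48 (SE 0.19, adjusted p = 7.0e-08), and with the lysate as a replicate block -0.93 (SE 0.27, adjusted p = 0.0092). With the trend over GC content removed in the fit it was -1.06 (SE 0.18, adjusted p = 1.6e-05).

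PRDX4, which oxidises protein disulfide isomerases in the ER, had the smallest gap in Ctrl cells. The soluble libraries held 67.2, 74.99 and 69.2 CPM and the insoluble ones 52.6, 49.8 and 54.6 CPM, which did not overlap. The log2 fold change of -0.43 (95% interval -1.06 to 0.20) had an adjusted p of 0.25 with the spread shared over all 24 libraries, and -0.48 (SE 0.14) with an adjusted p of 0.0037 without NaAsO2 insoluble replicate 3. In NaAsO2 the insoluble libraries held 23.6, 26.9 and 88.8 CPM against 54.1, 58.7 and 58.8 CPM in the soluble ones, and the log2 fold change was -0.32 (95% interval -0.96 to 0.32) with all libraries and -1.14 (SE 0.16, adjusted p = 3.9e-07) without that replicate. RK-33 gave -1.18 (SE 0.31, adjusted p = 0.0029) and Combo -1.02 (SE 0.31, adjusted p = 0.0093).

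**Figure D2:**
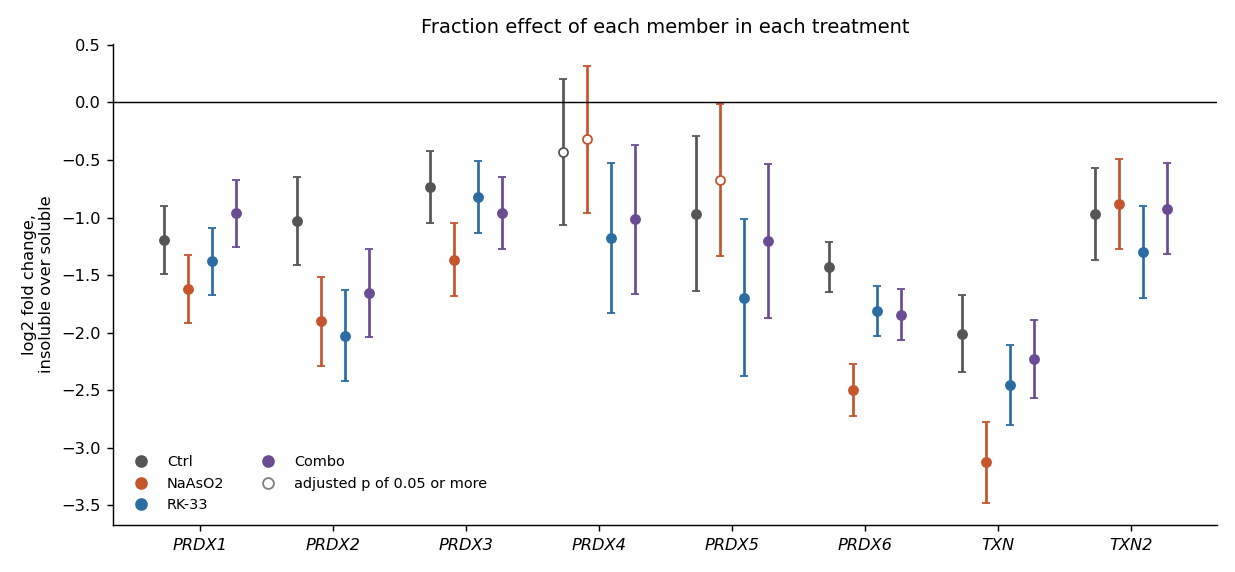
Log2 fold change of the insoluble over the soluble fraction (y axis) for each member (x axis) in the 4 treatments, with bars for the 95% interval of edgeR's fit and open symbols where the adjusted p was 0.05 or more. All 32 points lie below 0, TXN lowest in each treatment, and the open symbols are PRDX4 in Ctrl and NaAsO2 and PRDX5 in NaAsO2.

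The library that stood apart carried the members unequally. In NaAsO2 insoluble replicate 3, PRDX4 was at 3.52 and PRDX5 at 3.43 times the mean of replicates 1 and 2, TXN2 at 1.91 and PRDX2 at 1.45 times, while PRDX6 was at 0.892, PRDX1 at 0.693, PRDX3 at 0.645 and TXN at 0.618 times. The 4 members above 1 were the 4 with the highest GC content. Over 17405 tested genes with a known canonical transcript, Spearman's rho between the log2 ratio of this library to the other replicates and GC content was 0.66, a description across genes, which are not independent replicates. Without this library all 8 members passed as lower in the insoluble fraction in NaAsO2 and all 8 in Ctrl, where 61.1% and 61.8% of all genes then passed in either direction. Combo insoluble replicate 3 differed from its replicates in the same directions, less strongly, except for PRDX6. It held 31.1 CPM of PRDX4 against 19.7 and 18.2, and 52.0 CPM of PRDX5 against 30.7 and 29.6. For TXN2 it held 35.5 CPM against 29.1 and 28.8. TXN (12.7), PRDX3 (47.7) and PRDX1 (173 CPM) were lowest there. The relation of that library to GC content was not tested.

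**Figure D3:**
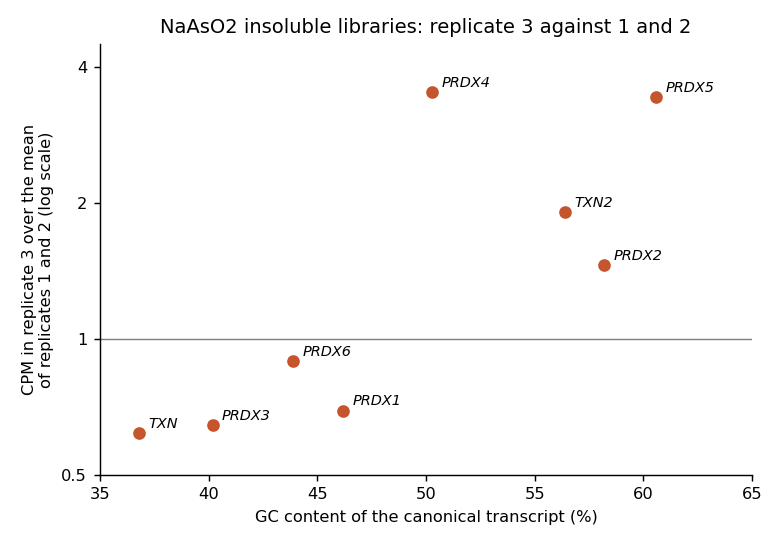
CPM in NaAsO2 insoluble replicate 3 divided by the mean of replicates 1 and 2 (y axis, log scale) against the GC content of each member's canonical transcript in percent (x axis). TXN, PRDX3, PRDX6 and PRDX1, at 36.8% to 46.2% GC, lie below 1, and PRDX4, TXN2, PRDX2 and PRDX5, at 50.3% to 60.6%, lie above.

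Short genes were lower in the insoluble fraction in general. The tested genes were split by summed exon length into 4 groups of nearly equal size. Of the members, 7 fell in the shortest group (up to 2669 bases) and PRDX3, at 3379 bases, in the next. The median log2 fold change of the shortest group, 4418 genes, was -0.35 in Ctrl, -0.25 in NaAsO2, -0.42 in RK-33 and -0.34 in Combo, while that of the longest group was 0.36, 0.39, 0.47 and 0.39. PRDX4 in Ctrl (-0.43) and in NaAsO2 (-0.32) was close to the median of its group, and the other 7 members lay below theirs in all 4 treatments. PRDX5, at 860 bases, had a smaller fraction difference than PRDX6, at 2311 bases, in each treatment. Whether length orders the members among themselves was not tested. With the trend over length removed in the fit, the median over the 8 was -0.74 in Ctrl, -1.07 in NaAsO2, -1.09 in RK-33 and -0.76 in Combo, and 7, 6, 7 and 7 members passed, where 47.7%, 57.2%, 54.7% and 49.7% of all genes passed in either direction.

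**Figure D4:**
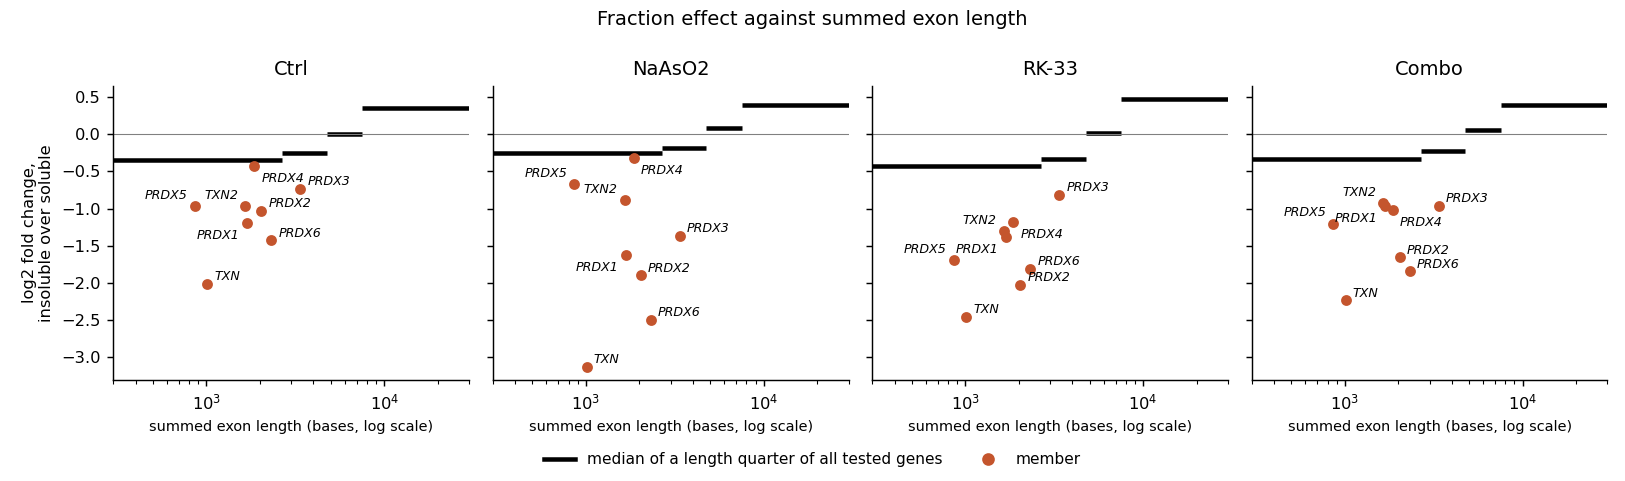
Log2 fold change of the insoluble over the soluble fraction against summed exon length in bases (log scale) in each treatment, with the members as orange points and the median of each of 4 length groups of the 17666 tested genes as a black bar. TXN lies far under the bar of its length group in every panel, at -2.01 to -3.13, and PRDX4 lies near the bar in Ctrl and NaAsO2.

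Levels between genes were compared per kilobase of summed exon. In Ctrl soluble libraries PRDX1 was highest at 210 ± 34.0 CPM per kb (SD, n = 3), followed by PRDX5 at 92.4 ± 7.98, TXN at 78.7 ± 8.96, PRDX6 at 78.7 ± 6.78, PRDX4 at 38.0 ± 2.18, PRDX3 at 32.1 ± 3.69, TXN2 at 29.7 ± 4.33 and PRDX2 at 29.1 ± 3.19. The ranges of PRDX5, TXN and PRDX6 overlapped, as did those of PRDX4 with PRDX3 and those of PRDX3, TXN2 and PRDX2. In Ctrl insoluble libraries the order was PRDX1 at 91.9 ± 8.43, PRDX5 at 47.3 ± 7.14, PRDX6 at 29.3 ± 2.25, PRDX4 at 28.2 ± 1.29, TXN at 19.6 ± 2.76, PRDX3 at 19.4 ± 1.11, TXN2 at 15.1 ± 1.25 and PRDX2 at 14.2 ± 2.12 CPM per kb. By this measure TXN was at a level like that of PRDX6 in Ctrl soluble and like that of PRDX3 in Ctrl insoluble libraries. Summed exon and canonical transcript lengths differed unequally, at 3379 and 1553 bases for PRDX3, 1010 and 737 for TXN and 860 and 860 for PRDX5. The order between genes is therefore tied to the length used, and the order by another length was not tested.

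NaAsO2 against Ctrl in the soluble fraction gave positive log2 fold changes for 7 of the 8, with a median of 0.41 against 0.03 over all genes. PRDX1 rose from 302, 415 and 344 to 505, 465 and 516 CPM, with a log2 fold change of 0.48 and an SE of 0.14 (adjusted p = 0.024). PRDX2 rose from 52.2, 65.1 and 60.3 to 82.4, 90.0 and 99.1 CPM (0.61, SE 0.18, adjusted p = 0.026), and PRDX6 rose by 0.32 (SE 0.10, adjusted p = 0.041). They are the 3 of 8 that passed as higher, where 6.31% of all genes did. Every NaAsO2 library exceeded every Ctrl library for 7 of 8 members, all but PRDX4, whether or not they passed, and for 26.9% of all genes. TXN (0.32, 95% interval 0.01 to 0.64), PRDX3 (0.33, 0.02 to 0.64), PRDX5 (0.50, -0.16 to 1.15) and TXN2 (0.54, 0.15 to 0.93) did not pass, nor did PRDX4 (-0.30, -0.93 to 0.33), the ER member. The count was 7 without NaAsO2 insoluble replicate 3, all but PRDX4, where 29.3% of all genes passed in either direction, and 0 or 1 when any one of the 6 libraries compared was left out.

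Under NaAsO2 in the insoluble fraction PRDX6 fell by 0.75 (SE 0.11, adjusted p = 1.3e-05) and TXN fell by 0.80 (SE 0.17, adjusted p = 0.00077) on the log2 scale, and TXN2 rose from 23.2, 27.2 and 24.5 to 30.03, 29.8 and 57.0 CPM (0.63, SE 0.19, adjusted p = 0.012). These were 2 members called lower and 1 called higher, where 21.8% and 21.2% of all genes were, shares near those of the members. Without replicate 3, TXN2 was at 0.33 (SE 0.14, adjusted p = 0.060), PRDX4 fell by 0.98 (SE 0.16, adjusted p = 1.7e-05), and PRDX6 and TXN still passed at -0.64 (SE 0.11) and -0.55 (SE 0.15).

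The change in the fraction difference from Ctrl to NaAsO2 was tested as an interaction. It was -1.12 (SE 0.23, adjusted p = 0.0011) for TXN, -1.07 (SE 0.15, adjusted p = 2.4e-05) for PRDX6, -0.87 (SE 0.26, adjusted p = 0.018) for PRDX2 and -0.63 (SE 0.21, adjusted p = 0.034) for PRDX3. These 4 of 8 passed as lower, where 11.4% of all genes did. PRDX1 (95% interval -0.83 to -0.01), TXN2 (-0.47 to 0.64), PRDX5 (-0.64 to 1.23) and PRDX4 (-0.79 to 1.01) did not pass. With the lysate as a replicate block, PRDX3 had an adjusted p of 0.054. Then 3 members passed, where 18.7% of all genes passed in either direction. Without replicate 3 of the NaAsO2 insoluble group 4 passed as well, but PRDX4 (-0.67, SE 0.21, adjusted p = 0.016) was among them in place of PRDX3 (-0.37, SE 0.16, adjusted p = 0.089), and with the trend over length removed PRDX2, PRDX6 and TXN passed. In these fits 28.6% and 23.2% of all genes passed in either direction. With the trend over GC content removed, PRDX2 (-1.06), PRDX6 (-0.86) and TXN (-0.77) passed, where 29.3% of all genes passed in either direction. PRDX3 (-0.35, SE 0.16, adjusted p = 0.11) did not pass in that fit. Leaving out Ctrl soluble replicate 1, Ctrl insoluble replicate 2 or NaAsO2 soluble replicate 3 left 2 members.

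RK-33 alone moved 0 members past the threshold in the soluble fraction by edgeR's quasi-likelihood test, its likelihood ratio test or DESeq2, 0 had an unadjusted p under 0.05, and 5.33% of all genes passed in either direction. Without NaAsO2 insoluble replicate 3 the count was 1, PRDX4 (-0.43, adjusted p = 0.030), where 15.2% of all genes passed in either direction. With all libraries PRDX4, at -0.43 (95% interval -1.06 to 0.20), had the lowest value there and TXN2, at 0.33 (-0.05 to 0.72), the highest. In the insoluble fraction 4 members fell, where 8.19% of all genes did. PRDX4 fell from 52.6, 49.8 and 54.6 to 26.1, 21.8 and 21.5 CPM (-1.18, SE 0.32, adjusted p = 0.014). PRDX2 fell by 0.71 (SE 0.19, adjusted p = 0.013), TXN by 0.68 (SE 0.17, adjusted p = 0.0083) and PRDX6 by 0.54 (SE 0.11, adjusted p = 0.0011). TXN2 stayed at 0.00 (95% interval -0.40 to 0.41). Every RK-33 library lay below every Ctrl library for 7 of 8 members, all but TXN2, and for 22.7% of all genes. Leaving out RK-33 insoluble replicate 2 or 3 left 2 members called. Without NaAsO2 insoluble replicate 3 there were 5, with PRDX1 added, where 25.8% of all genes passed in either direction. The interaction of fraction and RK-33 passed for PRDX2 (-0.99, SE 0.26, adjusted p = 0.046), 1 of 8 where 1.58% of all genes passed as lower, and had an adjusted p of 0.066 with the lysate as a replicate block. Of its 12 libraries, leaving out Ctrl insoluble replicate 3 or RK-33 soluble replicate 1 kept 1 call and leaving out any of the other 10 left 0, while without NaAsO2 insoluble replicate 3 the count was 3 (PRDX2, PRDX4 and PRDX5). In that last fit 9.61% of all genes passed in either direction.

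Combo was compared with NaAsO2 to see what RK-33 given first changed under arsenite. In the soluble fraction all 8 log2 fold changes were negative, from -0.50 to -0.27, with a median of -0.36 against -0.04 over all genes. TXN fell from 95.4, 92.6 and 110 to 72.0, 75.3 and 62.9 CPM (-0.50, SE 0.15, adjusted p = 0.050, just below the threshold), the 1 of 8 that passed where 1.67% of all genes passed as lower. PRDX1 and PRDX6 had adjusted p-values of 0.051 and 0.055. Leaving out any one of the 6 libraries compared left 0 members, and without NaAsO2 insoluble replicate 3 PRDX1, PRDX3, PRDX6 and TXN passed. In that last fit 17.6% of all genes passed in either direction. In the insoluble fraction PRDX4 fell by 0.99 (SE 0.31, adjusted p = 0.039) and PRDX6 rose from 41.8, 41.4 and 37.1 to 51.0, 49.8 and 49.9 CPM (0.32, SE 0.11, adjusted p = 0.043), where 6.90% of all genes were called lower and 6.88% higher. With the replicate number as a replicate block the count was also 2 but the members differed, PRDX4 (-0.93, SE 0.28, adjusted p = 0.031) and PRDX5 (-0.83, SE 0.27, adjusted p = 0.040) passing and PRDX6 (0.32, SE 0.11, adjusted p = 0.051) not. With the trend over GC content removed PRDX4 passed (-0.99, SE 0.28, adjusted p = 0.018) and PRDX6 did not (0.11, SE 0.12, adjusted p = 0.53). Without NaAsO2 insoluble replicate 3 neither PRDX4 nor PRDX6 passed, at -0.18 (SE 0.16) and 0.22 (SE 0.11), and the count was 0. The count was also 0 without Combo insoluble replicate 1 or 2, and 4 without NaAsO2 insoluble replicate 2. The interaction passed for 0 members in the quasi-likelihood test, where 0.357% of all genes passed in either direction and 3 members had an unadjusted p under 0.05. It passed for 2 in the likelihood ratio test and for 2 in DESeq2. The count was 1 without NaAsO2 insoluble replicate 1 or 2 or Combo insoluble replicate 3. No share of all genes is given for these other tests and left-out libraries, so their counts cannot be set against one. TXN was at 0.89 (95% interval 0.43 to 1.36, adjusted p = 0.075), PRDX1 at 0.66 (0.25 to 1.06, adjusted p = 0.15) and PRDX6 at 0.65 (0.35 to 0.96, adjusted p = 0.051). NaAsO2 and RK-33 were compared with the same Ctrl libraries, and Combo with the NaAsO2 libraries used in the first comparison, so these results are not independent of one another.

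For PRDX1, PRDX3, PRDX4, PRDX5 and TXN2 intron counts were below exon counts in every library, whereas for TXN they reached 177 against 172 exon counts in Ctrl insoluble replicate 3 and 70 against 67 in NaAsO2 insoluble replicate 3. Over all libraries they ran from 94 to 472 for PRDX1, from 17 to 238 for PRDX3, from 48 to 214 for TXN, from 73 to 178 for TXN2, from 8 to 46 for PRDX4 and from 6 to 52 for PRDX5. The 6 members tested had lower fitted values in the insoluble fraction in every treatment, and 6 passed in Ctrl, 3 in NaAsO2, 6 in RK-33 and 5 in Combo, where 21.4%, 10.9%, 24.8% and 16.3% of 17406 genes did. The median over the 6 was -0.87, -0.72, -1.17 and -0.87 on the log2 scale, against -0.11, 0.05, -0.09 and -0.03 over all genes. These are shares of a library's intron counts, which totalled 2297281 to 2829793 in Ctrl soluble and 4804689 to 5022889 in Ctrl insoluble libraries. Before scaling, TXN intron counts averaged 170 in Ctrl soluble and 161 in Ctrl insoluble libraries, and those of PRDX1 184 and 164. TXN differed between the 2 readouts. Its intron fraction difference was -0.69 (SE 0.18) in Ctrl and -0.43 (SE 0.21) in NaAsO2, while its exon difference was -2.01 and -3.13. The intron and exon values are shares of different totals, so their sizes are not directly comparable. In NaAsO2 the count was 6 without insoluble replicate 3, 1 without soluble replicate 1 or 3 or insoluble replicate 2, and 2 with the lysate as a replicate block. Of all genes, 29.5% passed in either direction without insoluble replicate 3 and 19.6% with the block. With that block 5 passed in Ctrl, where 37.2% of all genes passed in either direction. Without Combo soluble replicate 1 or insoluble replicate 1 the Combo count was 3.

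Intron counts were also compared between treatments, a comparison added after the values had been seen. TXN, PRDX3 and PRDX4 fell under NaAsO2 in the soluble fraction, 3 of 6 where 3.42% of all genes passed as lower. TXN intron counts were 64.5, 52.0 and 56.8 CPM in Ctrl soluble and 30.9, 21.9 and 26.8 CPM in NaAsO2 soluble libraries, which gave -1.14 on the log2 scale (SE 0.19, adjusted p = 0.00046). PRDX3 intron counts went from 61.8, 55.8 and 67.3 to 38.9, 27.2 and 32.8 CPM (-0.91, SE 0.22, adjusted p = 0.011), and PRDX4 introns fell by 0.98 (SE 0.29, adjusted p = 0.046). For TXN and PRDX3 the groups did not overlap, and exon CPM of both genes was above all Ctrl libraries in the same NaAsO2 soluble libraries. The count was 1 without Ctrl soluble replicate 3 or NaAsO2 soluble replicate 2. In the insoluble fraction TXN (-0.88), PRDX3 (-0.60) and PRDX4 (-1.10) passed as lower and TXN2 (0.56) as higher, where 12.6% and 18.7% of all genes did, and 2 passed without Ctrl insoluble replicate 3.

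Combo against NaAsO2 moved the introns of PRDX1 and PRDX3 in opposite directions. PRDX1 intron counts rose from 67.1, 55.3 and 66.0 CPM in NaAsO2 soluble to 130, 132 and 121 CPM in Combo soluble libraries (1.02, SE 0.15, adjusted p = 9.8e-06), where 9.54% of all genes passed as higher, and those of PRDX3 fell to 13.2, 15.3 and 8.76 CPM (-1.42, SE 0.24, adjusted p = 0.00011), where 4.83% passed as lower. In the insoluble fraction PRDX1 rose by 0.49 (SE 0.15, adjusted p = 0.016) and PRDX3 fell by 1.82 (SE 0.26, adjusted p = 6.4e-06), and TXN fell by 0.61 (SE 0.21, adjusted p = 0.030), where 13.1% of all genes passed as higher and 13.5% as lower. In the soluble fraction the 2 calls held without any one of the libraries compared, and in the insoluble fraction 1 of 3 was left without Combo insoluble replicate 1. Exon counts in the soluble fraction had log2 fold changes of -0.46 (SE 0.14) for PRDX1 and -0.34 (SE 0.15) for PRDX3, neither past the threshold. The study made its introns by taking all annotated exons out of the gene regions. Intron bases of PRDX1 and PRDX3 therefore could not lie in an exon of another gene. Of those of PRDX1, 2.23% lay in an intron of HMGB1P48. Whether RNA of other genes added to these intron counts was not tested. RK-33 against Ctrl called the introns of 0 of the 6 members in the soluble fraction by edgeR's quasi-likelihood test, its likelihood ratio test and DESeq2, with 0 at an unadjusted p under 0.05 and 1.07% of all genes called in either direction, and left PRDX1 at 0.12 (95% interval -0.19 to 0.42) and PRDX3 at 0.02 (-0.39 to 0.44). In the insoluble fraction it lowered the introns of TXN (-0.70, adjusted p = 0.030) and PRDX4 (-1.01, adjusted p = 0.046), 2 of 6 where 0.735% of all genes passed as lower, and leaving out any one of the 6 libraries compared left 0 or 1.

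**Figure D5:**
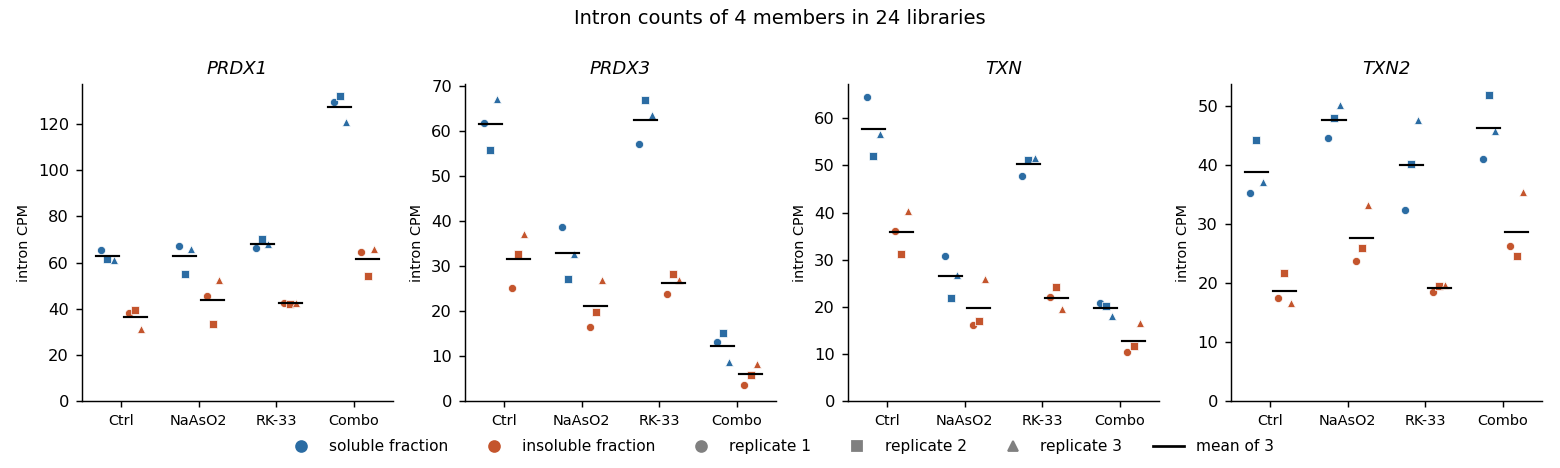
Intron CPM (scaled by TMM factors of the intron table, linear axes from 0) of PRDX1, PRDX3, TXN and TXN2 in the 24 libraries, drawn as in the plot of exon CPM. PRDX1 is highest in Combo soluble libraries, at 121 to 132 CPM, and PRDX3 lowest in Combo libraries of either fraction, at 3.61 to 15.3 CPM.

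Other genes of the pathway were taken from lists drawn up by function. Of 15 further genes of the thioredoxin system, 2 passed as higher and 4 as lower in the insoluble fraction of Ctrl cells, 5 and 4 in NaAsO2, 4 and 5 in RK-33 and 4 and 5 in Combo, with median log2 fold changes of -0.26, 0.02, -0.38 and -0.003. Of all genes, 24.4%, 27.9%, 29.2% and 24.1% passed as higher in these treatments and 26.6%, 29.7%, 30.4% and 28% as lower, so the 4 of 15 lower in Ctrl were near the share of all genes. Without NaAsO2 insoluble replicate 3, 5 passed as higher and 5 as lower in NaAsO2, and the median was -0.004. TXNRD1, the reductase that recharges TXN, had the opposite sign from TXN. Its Ctrl mean was 237 ± 18.5 CPM in soluble and 375 ± 47.1 CPM in insoluble libraries (SD, n = 3), a log2 fold change of 0.66 (SE 0.10), and at 1.18 (SE 0.10) in NaAsO2, 0.84 (SE 0.10) in RK-33 and 1.18 (SE 0.10) in Combo. Its summed exon length is 6710 bases. SESN3, a stress-induced sestrin, was higher at 1.39 (SE 0.23) in NaAsO2 (1.75 without that replicate), 0.78 (SE 0.22) in RK-33 and 1.39 (SE 0.23) in Combo. The thioredoxin-like TXNL1 and TXNDC17 were lower in all 4, with -2.17 (SE 0.24) and -1.63 (SE 0.14) in NaAsO2, and so was the methionine sulfoxide reductase MSRB1 at -1.21 (SE 0.15) in Ctrl.

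Of 19 glutathione and other antioxidant genes, 14 passed as lower and 0 as higher between fractions in Ctrl, 16 and 2 in NaAsO2, 16 and 1 in RK-33 and 15 and 1 in Combo, with medians of -0.96, -1.19, -1.07 and -1.25. In these treatments 26.6%, 29.7%, 30.4% and 28% of all genes passed as lower and 24.4%, 27.9%, 29.2% and 24.1% as higher. Without NaAsO2 insoluble replicate 3, 16 passed as lower and 1 as higher in NaAsO2. They included GSTO1, a glutathione transferase that also reduces arsenic species, at -1.26 (SE 0.14) in Ctrl and -2.29 (SE 0.14) in NaAsO2, SOD1, the cytosolic superoxide dismutase, at -1.26 (SE 0.16) in Ctrl, GSTP1 at -2.18 (SE 0.27) in RK-33 and GPX4, which reduces lipid peroxides, at -1.79 (SE 0.19) in Combo. GCLC, the catalytic subunit of the rate-limiting enzyme of glutathione synthesis, was higher at 0.49 (SE 0.11) in NaAsO2, 0.30 (SE 0.11) in RK-33 and 0.42 (SE 0.11) in Combo.

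ER and mitochondrial matrix genes share a destination with PRDX4 and with PRDX3 and TXN2. Of 21 ER folding genes, 4 passed as higher and 9 as lower in Ctrl, 2 and 12 in NaAsO2, 1 and 12 in RK-33 and 0 and 10 in Combo. HSPA5, the main ER chaperone, was higher in Ctrl at 0.67 (SE 0.14) and ERP44, which retains PRDX4 in the early secretory pathway, was lower in NaAsO2 at -2.09 (SE 0.25), or -1.77 (SE 0.19) without insoluble replicate 3. For RK-33 against Ctrl in the insoluble fraction, where PRDX4 fell, 13 of the 21 passed as lower and 0 as higher. Of all genes, 8.19% passed as lower there. The median of the 21 was -0.69 against -0.004 over all genes. Of 21 matrix genes, 7 passed as higher and 8 as lower in Ctrl, 2 and 13 in NaAsO2, 2 and 11 in RK-33 and 2 and 12 in Combo. For both lists the shares of all genes were 24.4% higher and 26.6% lower in Ctrl and 27.9% and 29.7% in NaAsO2. They were 29.2% and 30.4% in RK-33 and 24.1% and 28% in Combo. In NaAsO2, 2 ER genes passed as higher and 13 as lower without insoluble replicate 3, and 1 and 13 matrix genes did. HSPE1, the small co-chaperonin, was lower at -1.92 (SE 0.14) in Ctrl and HSPA9, the matrix Hsp70 that drives protein import, higher at 0.97 (SE 0.15).

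Nuclear RNA was present in both fractions. The summed CPM of MALAT1, NEAT1, KCNQ1OT1, TUG1, MEG3 and PVT1 ran from 11553 to 17342 in Ctrl soluble, 6934 to 9661 in Ctrl insoluble, 5950 to 8330 in NaAsO2 soluble and 2158 to 3964 in NaAsO2 insoluble libraries. In RK-33 cells it ran from 7702 to 14057 in soluble and 7517 to 8303 in insoluble libraries, which overlapped. MALAT1 made up most of each Ctrl sum, while NEAT1 went the other way, from 399 to 611 CPM in Ctrl soluble and 1575 to 2004 CPM in Ctrl insoluble libraries. Of the 5 tested, 3 passed as higher and 1 as lower in Ctrl between fractions. The part of nuclear RNA in the intron values was not tested.

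Over the 24 libraries, the genes whose log2 CPM followed a member most closely were, for TXN, SNRPG and THOC7 (r = 0.993 for both) and, for PRDX6, RPS13 and RPL19 (r = 0.996 and 0.995), among the 10252 genes whose mean CPM reached 10. PRDX1 was followed by MTPN and PCNA (0.989 and 0.987), PRDX2 by NIPSNAP1 and PSMB6 (0.994 and 0.990), PRDX3 by GLO1 and RPL11 (0.992 and 0.990), PRDX4 by TAPBP and CLEC11A (0.980 and 0.976), PRDX5 by TNNT1 and ATP5F1D (0.989 and 0.988) and TXN2 by PCBP4 and LSM4 (0.989 and 0.986). Among the members themselves r was highest between PRDX6 and TXN (0.993) and lowest between PRDX3 and PRDX4 (0.524). These are descriptions over libraries that share lysates, fractions and base composition, and the difference between fractions makes up much of each.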

How the data were processed

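RNA of 24 libraries was measured by sequencing, and the authors deposited raw counts of fragments per gene, without normalisation. Per the file headers and the submitters' processing notes, reads were aligned with STAR 2.7.2b to GRCh38.p13 and counted with featureCounts 1.5.3 on GENCODE release 40, over exons and, in a second table, over introns (minimum overlap of 25 bases), without strand although the kit was directional. Counts of 394 circular RNAs were searched, and 0 touched a member. Spike-in rows were not used here, so levels are relative to each library's total.

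Members and gene lists were chosen with earlier results of these data known. Counts were fitted in edgeR 4.0.16 (R 4.3.3) with TMM scaling, 8 groups, all 24 libraries and the quasi-likelihood F-test. Genes with a mean under 1 CPM were left out, p-values were adjusted over all genes tested by the Benjamini-Hochberg method, and the threshold was 0.05. The labels give replicate numbers only, and the study's methods describe 3 repeats of the fractionation in each condition. Each p-value sets a difference against the spread between such repeats, estimated over all 8 groups and without the lysate pairing. DESeq2 1.42.0, other scalings and filters, and left-out libraries were alternatives. The 2 fractions of one number were treated as one lysate, as in the paired tests of the study, and the lysate was the replicate block for comparisons of fractions. The deviations of the 2 fractions of a lysate from their group means correlated at r = -0.28 to 0.10 (median -0.03, 1 of 12 over 0.1). Between treatments, samples of one number deviated together for Combo and NaAsO2 in the insoluble fraction (r = 0.445, 0.366 and 0.654), where the numbers were taken as pairs and the number as a replicate block is given beside the result.

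All 8 members are named. Of the thioredoxin-system and antioxidant lists, the genes that could be named for a fraction difference were the 3 with the largest change in each direction among those past the threshold with a mean of at least 10 CPM, and 2 of the ER and matrix lists. Of the 18 processed pseudogenes of members in the exon table, 1 passed the filter, and none held over 2.32% of its member's counts. The coding start of PRDX1 is not reported here.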

Additional observations from a re-analysis of the deposited data

Results flagged for a closer look

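In 5 cases the fraction difference of a member itself differed between treatments, by the interaction term of edgeR's quasi-likelihood fit. From Ctrl to NaAsO2 the log2 fold change of insoluble over soluble moved by -1.12 for TXN, -1.07 for PRDX6, -0.87 for PRDX2 and -0.63 for PRDX3. Without NaAsO2 insoluble replicate 3 these values were -0.85, -0.94, -0.98 and -0.37, the last of which did not pass (adjusted p = 0.089). With the trend over GC content removed they were -0.77, -0.86, -1.06 and -0.35, and the last again did not pass (adjusted p = 0.11). From Ctrl to RK-33 it moved by -0.99 for PRDX2 (adjusted p = 0.046), and by -0.98 with the lysate as a replicate block (adjusted p = 0.066). Groups held 3 libraries each, too few to look for single outlying values within a group. What lies behind the base composition of NaAsO2 insoluble replicate 3 was not tested.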

How the results depend on the processing

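Over 1459 recomputed values of the members, 1271 kept their direction and their side of the threshold, 170 lost the call, 16 gained it and 2 turned direction. Both that turned are the NaAsO2 fraction difference of PRDX4, at 0.10 with the trend over length removed and, with single libraries left out, from -1.14 (without NaAsO2 insoluble replicate 3) to 0.064 (without NaAsO2 insoluble replicate 1). Counts of members passing moved by over 1.5 times as follows. A 2-fold limit gave 4 in Ctrl and 5 in Combo for the fraction differences, 0 for NaAsO2 against Ctrl in either fraction, 1 for RK-33 in the insoluble fraction, 0 for Combo against NaAsO2 in either fraction, and 2 and 0 for the interactions with NaAsO2 and RK-33. In introns it gave 2 in Ctrl, 0 in NaAsO2 and 3 in Combo for the fraction differences and 1 each for NaAsO2 in both fractions and for RK-33 and Combo in the insoluble one. Fitting only the groups compared gave 8 (soluble) and 1 (insoluble) for NaAsO2 against Ctrl, 1 and 7 for RK-33, 7 and 0 for Combo, 2 and 3 for the interactions with NaAsO2 and RK-33, and, in introns, 0 for the NaAsO2 fraction difference and 1 each for NaAsO2 and Combo in the insoluble fraction. Of all genes, 41.7% and 9.15% then passed in either direction for NaAsO2, 14.5% and 32.9% for RK-33 and 31.1% and 0.11% for Combo. For these interactions 14.6% and 11.8% passed, and for these intron comparisons 4.94%, 7.56% and 4.51%. Removing the GC trend gave 6 for NaAsO2 in the soluble fraction and 4 and 1 for Combo. There 25.3%, 15% and 16.8% of all genes passed in either direction. For Combo in the soluble fraction, RLE factors, library size alone, no filter and a filter at 10 CPM gave 0, the likelihood ratio test 2, and DESeq2 and exon plus intron counts 3 each. Library size alone gave 0 for NaAsO2 in the soluble fraction and 5 for the intron NaAsO2 fraction difference. Exon plus intron counts gave 2 and 0 for the interactions with NaAsO2 and RK-33, and removal of the length trend gave 0 for that with RK-33. The Combo minus NaAsO2 interaction had 1 at a filter of 10 CPM and 2 by the likelihood ratio test and by DESeq2. A filter at 10 CPM gave 2 for NaAsO2 and 1 for RK-33 on introns in the insoluble fraction, and no filter 1 for the latter. The cause of these moves was not tested. Counts printed without a share of all genes, here and for single libraries left out, cannot be set against that share.

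With single libraries left out, the counts ran from 6 to 8 for the fraction differences in Ctrl and NaAsO2, 8 to 8 in RK-33 and Combo, 0 to 7 and 2 to 4 for NaAsO2 in the soluble and insoluble fractions, 0 to 1 and 2 to 5 for RK-33, 0 to 4 for Combo in either fraction, and 2 to 4, 0 to 3 and 0 to 1 for the interactions with NaAsO2, RK-33 and Combo. In introns they ran from 4 to 6, 1 to 6, 5 to 6 and 3 to 5 for the fraction differences, 1 to 3 and 2 to 4 for NaAsO2, 0 to 0 and 0 to 2 for RK-33, and 2 to 2 and 1 to 3 for Combo. Leaving NaAsO2 insoluble replicate 3 out of fits that do not use its group, and out of the counts of the gene lists, was chosen after seeing the data.

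With the lysate as a replicate block the interaction with RK-33 had 0 members and the fraction difference in NaAsO2 had 7, and otherwise only the calls named in the report changed. Except for Combo and NaAsO2 in the insoluble fraction, samples that share a number across treatments share only the number (r from -0.21 to 0.19, 1 of 15 pairs over 0.1). A block on it gave 3 and 4 members for NaAsO2, 0 and 4 for RK-33, and 1 and 2 for Combo in the soluble and insoluble fractions. Of all genes, 13.8% and 43.7%, 5.73% and 14.4%, and 6.4% and 15.4% passed in either direction. Depth limits the intron values of PRDX4 and PRDX5 most, with as few as 8 and 6 counts in a library.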
